A study of Mus musculus with 6 samples.

Results

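The keratins described here are the 50 genes whose symbol was Krt followed by a number and at most 1 letter, after leaving out the stress keratins Krt6a, Krt6b, Krt16 and Krt17, among 27179 genes counted in mouse skin. They were sorted by their known place of expression into 13 keratins of the interfollicular epidermis, 5 simple epithelial keratins, 4 mucosal or corneal keratins, 1 companion layer keratin, 8 inner root sheath keratins, 15 hair shaft keratins and 4 keratins left unplaced (Krt42, Krt88, Krt90 and Krt222). The interfollicular class includes Krt15 and Krt79, which are made in parts of the follicle, as given below. Total RNA was sequenced from frozen skin of female BALB/c mice aged 6 to 8 weeks. Of the 6 libraries analysed, 3 came from skin given bleomycin and ajulemic acid (BLM_AJA). Skin given bleomycin and EHP-101 (BLM_EHP), skin given bleomycin alone (BLM) and control skin (Control) had 1 library each, all numbered replicate 3. Any further libraries of the control, bleomycin or EHP-101 conditions were not used, as described under the processing. Bleomycin is an agent that breaks DNA and is used in mice to model the skin fibrosis of scleroderma. EHP-101 is an oral formulation of a cannabidiol derivative, and ajulemic acid is a synthetic cannabinoid. The 3 treated conditions share the bleomycin exposure. The labels give no dose, route, time, skin site or stage of the hair cycle, and they do not say what the control mice received. They also do not say whether the libraries came from separate animals, so a p-value here reflects no more than the scatter among these samples, and that scatter may be technical.

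Keratins are the intermediate filament proteins of epithelial cells and assemble as pairs of an acidic type I and a basic type II chain. In epidermis, basal cells make Krt5 and Krt14 and switch to Krt1 and Krt10 as they move up. In a growing hair follicle, cells above the matrix make 1 set of pairs in the inner root sheath, which moulds the hair, and another set, rich in cysteine, in the shaft itself. Follicles cycle between growth and rest, and the sheath and shaft keratins are made during growth. Simple keratins such as Krt8 and Krt18 mark single-layered epithelia, glands and the Merkel cells of skin.

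Library totals ran between 14291592 and 19837682 counts, and the 50 keratins took between 1.39% and 3.02% of them. Mitochondrial ribosomal RNA took between 17.3% and 26.5% of the counts. The 3 ajulemic acid libraries did not form a tight group: replicate 2 stood apart from replicates 1 and 3 in its follicle keratins, as given below, and class values of that group are given with and without it. The ajulemic acid libraries also stood apart from the other 3 in liver markers, given beside the simple keratins. The control library had the highest sums of lung and gland markers, at 33.9 and 120 CPM. Gland markers also reached 108 CPM in ajulemic acid replicate 2. Single markers, some of which go the other way, are given beside the simple keratins. Levels are given as CPM, counts scaled to a common library size, and levels of different genes are compared only per kilobase of gene length. Values of single libraries have no replicate check, and for the ajulemic acid group a mean ± SD over its 3 libraries is printed where 1 value stands for the group. In bulk skin, fewer cells of a type and less RNA per cell cannot be told apart. Of the 50 keratins, 47 passed the filter on low counts and entered the tests, and Krt9, Krt76 and Krt88, with at most 4 counts in any library, did not.

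The inner root sheath keratins split the 6 libraries into a high set and a low pair. Their summed level was 6502, 313 and 14618 CPM in ajulemic acid replicates 1, 2 and 3, 5704 CPM in the EHP-101 library, 586 CPM in the bleomycin library and 7185 CPM in the control library. Replicate 2 of the ajulemic acid group and the bleomycin library made up the low pair, and the other 4 libraries lay above them. The type II keratin Krt71 (gene 56735, chromosome 15, 101733949 to 101743097 in mm10), in which mutations give mice wavy coats, had 3022, 142 and 6877 CPM in the ajulemic acid libraries, 2731 CPM in the EHP-101 library, 286 CPM in the bleomycin library and 3161 CPM in the control library. Its type I partner Krt25 (gene 70810, chromosome 11, 99315844 to 99322941) had 1472, 67.4 and 3260 CPM with ajulemic acid, 1325 CPM with EHP-101, 123 CPM with bleomycin alone and 1520 CPM in control skin. Both genes were low in the same 2 libraries and highest in ajulemic acid replicate 3. The type I keratin Krt27 had 959, 39.4 and 2145 CPM with ajulemic acid, 743 CPM with EHP-101, 87.4 CPM with bleomycin alone and 1059 CPM in control skin. Krt73 and Krt72, type II keratins known in human follicles from the sheath cuticle, sat lower per length but had the same order of libraries at their ends. Krt73 had 339, 20.9 and 752 CPM with ajulemic acid, 356 CPM with EHP-101, 31.9 CPM with bleomycin alone and 433 CPM in control skin. Krt72 had 230, 11.2 and 529 CPM with ajulemic acid, 165 CPM with EHP-101, 17.4 CPM with bleomycin alone and 314 CPM in control skin. All 8 sheath keratins, Krt26, Krt28 and Krt74 included, were highest in ajulemic acid replicate 3 and lowest in replicate 2. The highest library exceeded the lowest by between 31.3 and 54.5 times.

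Within the sheath class, mean levels per kilobase placed Krt71 first at 1243, then Krt25 at 784 and Krt27 at 545. Krt73, Krt72, Krt28 and Krt26 followed between 150 and 95.5, and Krt74 was far below at 2.57. Krt71 stayed at between 1.56 and 1.77 times Krt25 per length in all 6 libraries, a narrow band beside the 48.6-fold span of Krt71 itself. The summed type II sheath keratins were between 0.951 and 1.04 times the summed type I sheath keratins per length. By these counts the 2 chain types of the sheath were near balance in every library, whatever its total. Of the 50-base windows of type I Krt25 and Krt27, 10.9% and 11.1% also occurred in another gene, against 1.965% for Krt71. Such overlap is described below for the shaft, and its part in the balance was not tested.

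The hair shaft keratins showed the same split of libraries. Their summed level was 2512, 178 and 5533 CPM in ajulemic acid replicates 1, 2 and 3, 1919 CPM in the EHP-101 library, 155 CPM in the bleomycin library and 3424 CPM in the control library. Krt33a (gene 71888, chromosome 11, 100011199 to 100016212), a type I keratin of the shaft, had 465, 32.7 and 1052 CPM with ajulemic acid, 330 CPM with EHP-101, 25.6 CPM with bleomycin alone and 614 CPM in control skin. The nearby Krt34, also type I, had 334, 21.9 and 703 CPM with ajulemic acid, 183 CPM with EHP-101, 18.7 CPM with bleomycin alone and 421 CPM in control skin. In both genes the EHP-101 library lay below the control library, and bleomycin alone gave the lowest value. The type II keratins Krt83, Krt81 and Krt86, all of which can carry mutations in the human hair disorder monilethrix, had like values across libraries. Krt83 had 366, 22.6 and 827 CPM with ajulemic acid, 284 CPM with EHP-101, 19.1 CPM with bleomycin alone and 476 CPM in control skin. Krt81 had 273, 17.1 and 558 CPM with ajulemic acid, 170 CPM with EHP-101, 15.6 CPM with bleomycin alone and 390 CPM in control skin, and Krt86 stayed close beside it. Krt86 had 250, 16.6 and 530 CPM with ajulemic acid, 163 CPM with EHP-101, 13.7 CPM with bleomycin alone and 341 CPM in control skin. All 15 shaft keratins were highest in ajulemic acid replicate 3, while 12 were lowest in the bleomycin library and 3 in ajulemic acid replicate 2. The highest library exceeded the lowest by between 14.96 and 43.3 times.

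The counts of several shaft keratins are not independent of each other, because reads of 50 bases can match more than 1 of them. In GENCODE transcripts, 43.5% of the 50-base windows of Krt81 and 43.3% of those of Krt86 also occurred in another gene, mainly in each other and in Krt83 and Krt87. The share was 36.9% for Krt87, 33.1% for Krt34, 28.1% for Krt31, 24.2% for Krt33b, 23.2% for Krt83 and 21.9% for Krt33a. Values of these 8 genes are therefore uncertain one by one, and sums that include them share this. The treatment of reads with several matches is not given in the sources used here. Krt32, Krt39, Krt40, Krt82 and Krt84 had no shared window. These shaft keratins, free of that overlap, spanned between 14.96 and 39.9 times from the lowest to the highest library.

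Shaft type II keratins were between 0.608 and 0.699 times the shaft type I keratins per length. Both sums include genes with many shared windows, so this ratio and that of sheath to shaft are uncertain as levels. The 2 lowest ratios came from the 2 libraries with few shaft counts, 0.608 in ajulemic acid replicate 2 and 0.638 in the bleomycin library. Sheath keratins exceeded shaft keratins per length in every library, by 2.37, 1.61 and 2.42 times in the ajulemic acid libraries, 2.72 times in the EHP-101 library, 3.46 times in the bleomycin library and 1.93 times in the control library. The bleomycin library and ajulemic acid replicate 2, which were alike in their low totals, thus stood at opposite ends of this ratio. Gene by gene, replicate 2 was below the bleomycin library in 8 of 8 sheath keratins, at between 0.450 and 0.980 times its CPM. It was below the bleomycin library in 3 of 15 shaft keratins, at between 0.782 and 1.79 times its CPM over the class.

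**Figure D1:**
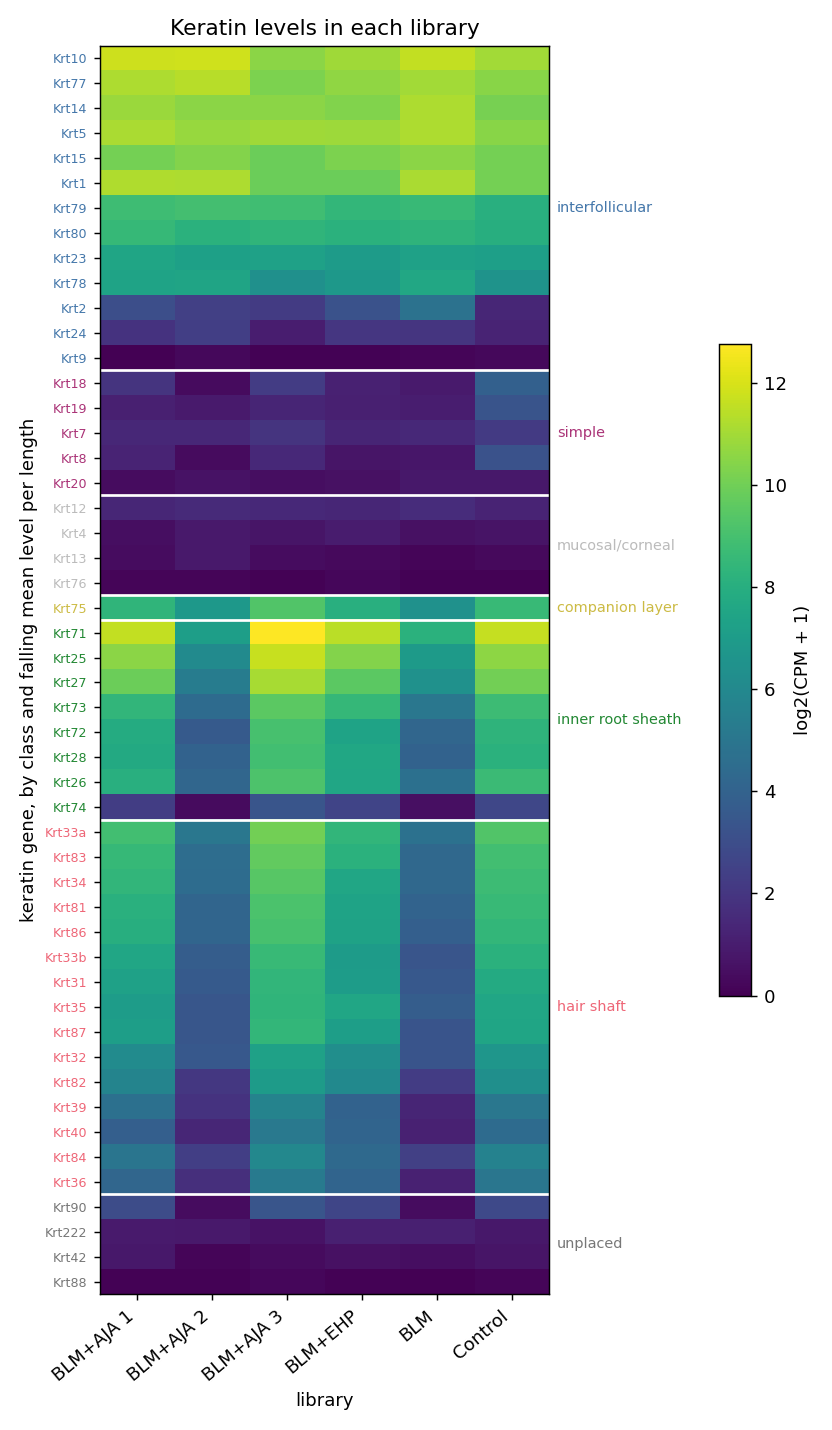
Level of each of the 50 keratins in each library, as log2(CPM + 1), with genes down the page by class and, within a class, by falling mean level per length; libraries run from the 3 BLM+AJA replicates through BLM+EHP and BLM to Control. The sheath and shaft blocks are darker in the BLM library and in BLM+AJA replicate 2 than in the other columns. Most interfollicular keratins keep a similar colour in all 6 columns, with Krt2 an exception at 27.3 CPM in BLM and 1.58 CPM in Control. Krt8, Krt18 and Krt19 are brightest in Control.

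Sequences just upstream of the gene starts are shown for follicle keratins whose levels ran together across libraries, with an epidermal keratin for contrast. They are the 250 bases before the start in RefSeq's promoter table (build GRCm38.p6), all read on the minus strand. The sheath keratins Krt71 and Krt25 lie at chr15:101743098-101743347 and chr11:99322952-99323201, the shaft keratins Krt31 and Krt34 at chr11:100050552-100050801 and chr11:100041555-100041804, and the epidermal Krt10 at chr11:99389365-99389614. Capitals mark TATAAA, the core promoter box, CTTTGA, a core letter string of Lef1 sites, and TTTATGG, a string that was chosen after the sequences were seen.
Krt71: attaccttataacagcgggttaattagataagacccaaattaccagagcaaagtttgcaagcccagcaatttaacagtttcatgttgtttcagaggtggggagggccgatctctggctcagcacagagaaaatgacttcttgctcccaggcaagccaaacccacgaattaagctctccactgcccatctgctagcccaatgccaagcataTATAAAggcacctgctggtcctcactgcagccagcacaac
Krt25: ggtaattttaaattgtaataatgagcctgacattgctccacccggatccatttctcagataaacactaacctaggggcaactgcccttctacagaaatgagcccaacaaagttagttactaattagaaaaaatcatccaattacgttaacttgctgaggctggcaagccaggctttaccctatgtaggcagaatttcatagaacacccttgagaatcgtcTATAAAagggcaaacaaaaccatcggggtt
Krt31: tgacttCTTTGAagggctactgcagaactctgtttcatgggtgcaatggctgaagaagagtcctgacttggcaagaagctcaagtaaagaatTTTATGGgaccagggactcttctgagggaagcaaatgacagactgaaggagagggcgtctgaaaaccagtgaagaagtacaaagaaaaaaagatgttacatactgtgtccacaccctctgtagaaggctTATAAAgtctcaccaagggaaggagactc
Krt34: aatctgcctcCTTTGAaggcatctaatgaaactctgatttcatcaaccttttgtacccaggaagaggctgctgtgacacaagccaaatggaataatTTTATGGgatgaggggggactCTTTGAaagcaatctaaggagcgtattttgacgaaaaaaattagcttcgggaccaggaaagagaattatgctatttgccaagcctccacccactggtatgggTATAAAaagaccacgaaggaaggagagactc
Krt10: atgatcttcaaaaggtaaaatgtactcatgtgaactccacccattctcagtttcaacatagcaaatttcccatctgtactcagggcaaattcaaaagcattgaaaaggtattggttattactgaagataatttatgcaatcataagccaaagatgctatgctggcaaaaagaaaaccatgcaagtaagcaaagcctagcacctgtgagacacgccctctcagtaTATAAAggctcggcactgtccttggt
The search covered both strands of 300-base windows, 50 bases after the start included, for 36 of the 50 keratins that had an entry. TATAAA occurred in 7 of 7 sheath promoters, 6 of 9 shaft promoters and 1 of 10 interfollicular promoters (Krt10), against 14.2% of 27025 promoters in the table. The matches of Krt72 and Krt84, counted here, were on the opposite strand 203 and 206 bases before the start. They were thus away from the place of a core promoter box. The matches of Krt27 and Krt33b were on the sense strand, 15 and 47 bases before the start. In the printed sequences TATAAA lay 40 bases before the start of Krt71 and 30 before that of Krt25. It lay 29, 31 and 26 bases before those of Krt31, Krt34 and Krt10. CTTTGA occurred in 5 of 9 shaft promoters, 1 of 7 sheath promoters and 1 of 10 interfollicular promoters, against 16.2% of all promoters. In the neighbouring type I genes Krt31, Krt32, Krt33b and Krt34 it lay at nearly the same place, 244, 247, 247 and 240 bases before the start. The remaining shaft match, in Krt39, was on the opposite strand 18 bases before the start. TTTATGG occurred in 4 of 9 shaft promoters, 0 of 7 sheath promoters, 1 of 10 interfollicular promoters (Krt9) and that of Krt75, against 2.76% of all. The 4 were Krt31 and Krt34, whose sequences had been seen when the string was chosen, and Krt40 and Krt82. Its share in the shaft class is thus not independent of that choice. The match of Krt40 was on the opposite strand, and Krt82 had matches on both strands. The other strings searched were CTTTGT (18.7% of all promoters), TTTACGA, a Hoxc13 string (0.625%), and TGANTCA, an AP-1 string (7.93%). Each of these strings occurred in at most 1 promoter of the sheath, the shaft and the interfollicular class each. CTTTGT, which differs from CTTTGA only in its last letter, occurred in 1 of 9 shaft, 1 of 7 sheath and 0 of 10 interfollicular promoters. Such a match describes letters in a window and not a bound site, and matches in neighbouring genes of like sequence cannot be taken as independent.

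Krt75, the type II keratin of the companion layer between the sheaths, spanned less than either follicle class. It had 322, 112 and 614 CPM with ajulemic acid, 265 CPM with EHP-101, 85.9 CPM with bleomycin alone and 388 CPM in control skin. Per length it was 0.208 times the sheath keratins in ajulemic acid replicate 2 and 0.0851 times in the bleomycin library, while the other 4 libraries lay between 0.0242 and 0.0312. The unplaced Krt90, named after its values were seen, had 6.75, 0.344 and 9.27 CPM with ajulemic acid, 5.43 CPM with EHP-101, 0.321 CPM with bleomycin alone and 6.04 CPM in control skin. It lies on chromosome 15 between Krt82 and Krt75 (101552356 to 101562950).

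The 50 keratins lie in 2 clusters, 25 on chromosome 11 (99233098 to 100269871) and 25 on chromosome 15 (101349571 to 102032026). The sheath and shaft keratins occupy blocks of their own in both. On chromosome 11 the 4 type I sheath keratins (99315844 to 99374903) and the 9 type I shaft keratins (99514624 to 100105626) had no keratin of another class between their outer members. On chromosome 15 the 4 type II sheath keratins (101733949 to 101802332) had none either, and the 6 type II shaft keratins (101431490 to 101550659) had only the unplaced Krt88, with at most 3 counts, among them. In BLM against Control the keratins of these 4 blocks had log2 fold changes between -3.47 and -4.94. The interfollicular keratins beside the blocks, such as Krt10 and Krt5, had positive ones.

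**Figure D2:**
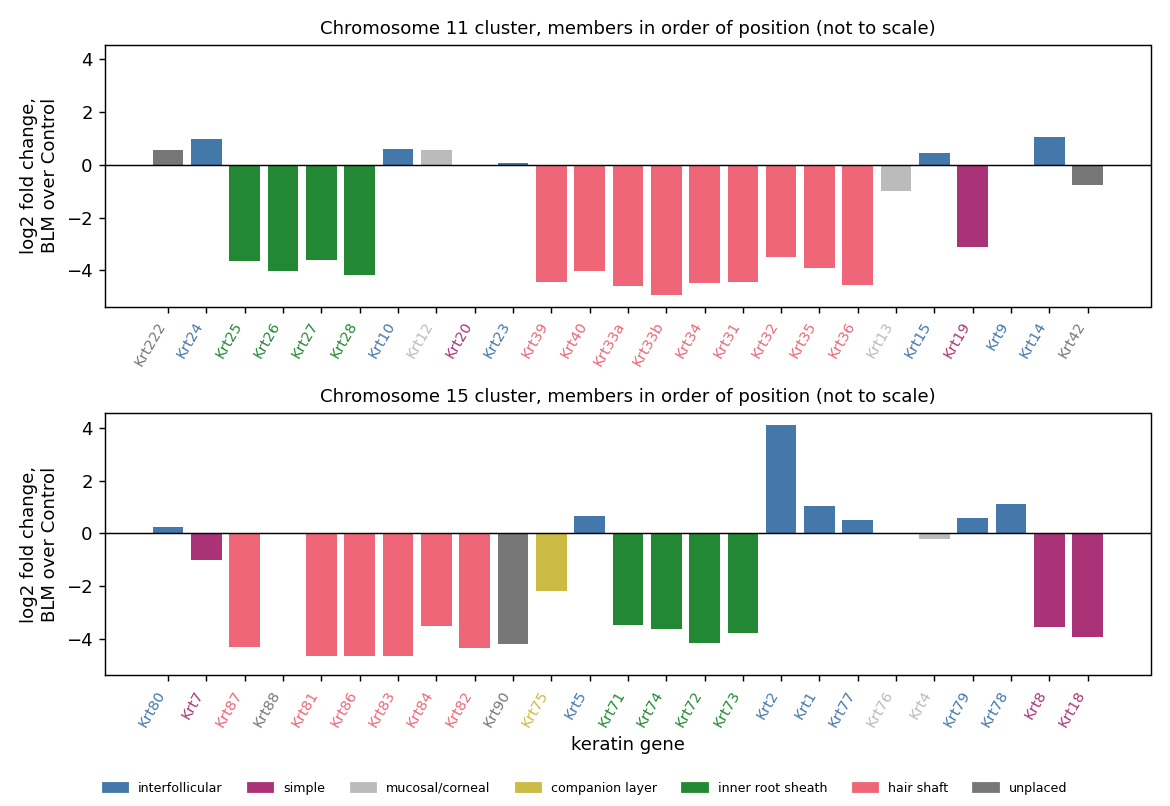
Fitted log2 fold change of BLM over Control for each tested keratin, in order of position along chromosome 11 (top) and chromosome 15 (bottom), coloured by class; genes not tested have no bar and spacing is not to scale. The sheath and shaft keratins form runs of bars below -3, and the interfollicular keratins on either side have bars at or above 0.

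The interfollicular keratins, in contrast, stayed within a narrow range in sum, although single members such as Krt2 did not. Their summed level was 14581, 14278 and 9060 CPM in ajulemic acid replicates 1, 2 and 3, 9707 CPM in the EHP-101 library, 14488 CPM in the bleomycin library and 8940 CPM in the control library. The 2 libraries low in follicle keratins were among the 3 highest here, together with ajulemic acid replicate 1. The suprabasal type I keratin Krt10 (gene 16661, chromosome 11, 99385254 to 99389364) had 3498, 3611 and 1493 CPM with ajulemic acid, 1944 CPM with EHP-101, 3089 CPM with bleomycin alone and 2024 CPM in control skin. Krt77, a suprabasal type II keratin, had 2286, 2665 and 1196 CPM with ajulemic acid, 1568 CPM with EHP-101, 2044 CPM with bleomycin alone and 1436 CPM in control skin. For both, ajulemic acid replicate 3 was the lowest library and replicate 2 the highest. The basal type II keratin Krt5 had 2277, 1764 and 1978 CPM with ajulemic acid, 1884 CPM with EHP-101, 2286 CPM with bleomycin alone and 1443 CPM in control skin. Its type I partner Krt14 had 1840, 1497 and 1493 CPM with ajulemic acid, 1308 CPM with EHP-101, 2298 CPM with bleomycin alone and 1112 CPM in control skin. Both basal keratins were highest in the bleomycin library and lowest in the control library. Krt15, a type I keratin of basal cells and of the follicle bulge, had 1074, 1340 and 938 CPM with ajulemic acid, 1185 CPM with EHP-101, 1459 CPM with bleomycin alone and 1066 CPM in control skin. Krt79, made in the upper follicle and sebaceous duct of mice, had 441, 488 and 456 CPM with ajulemic acid, 352 CPM with EHP-101, 390 CPM with bleomycin alone and 259 CPM in control skin.

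Per length, Krt10 had the highest mean level of the interfollicular class at 1246, followed by Krt77 at 1085, Krt14 at 959 and Krt5 at 885. Krt15 and Krt1 were next to each other at 684 and 677. Krt5 was 0.754 times Krt14 per length in the bleomycin library, against between 0.893 and 1.09 times in the other 5. Of the 50-base windows of Krt14 and Krt5, 14.4% and 8.52% also occurred in another gene, stress keratins among them, so both are uncertain to that extent. The ratio of the suprabasal pair Krt1 and Krt10 to the basal pair Krt5 and Krt14 was 1.24, 1.56 and 0.610 in the ajulemic acid libraries, 0.795 in the EHP-101 library, 0.983 in the bleomycin library and 1.07 in the control library. The ajulemic acid libraries alone thus covered the whole range of that ratio. Sheath and shaft keratins together were 0.667, 0.0370 and 2.35 times the interfollicular keratins per length with ajulemic acid, 0.824 times with EHP-101, 0.0539 times with bleomycin alone and 1.26 times in control skin.

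Krt2 departed from the rest of its class. It encodes a late suprabasal type II keratin, in mice known best from ear, sole and tail skin (gene 16681, chromosome 15, 101810689 to 101818169). It had 110, 75 and 74 counts with ajulemic acid, 137 with EHP-101, 425 with bleomycin alone and 24 in control skin. These correspond to 7.497, 4.30 and 3.69 CPM with ajulemic acid, 8.36 CPM with EHP-101 (exact 95% Poisson interval 7.01 to 9.88), 27.3 CPM with bleomycin alone (24.7 to 30.0) and 1.58 CPM in control skin (1.01 to 2.34). Such intervals cover counting error only. The bleomycin library was far above the other 5, and the control library was below all 3 ajulemic acid libraries. Krt2 had the largest distance from 0 among interfollicular keratins in BLM against Control, with a log2 fold change of 4.11 (SE 0.65), and it did not pass the test over all genes (edgeR adjusted p = 0.434, unadjusted p = 0.00159). Per length its mean level was 3.36, far below that of Krt10.

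**Figure D3:**
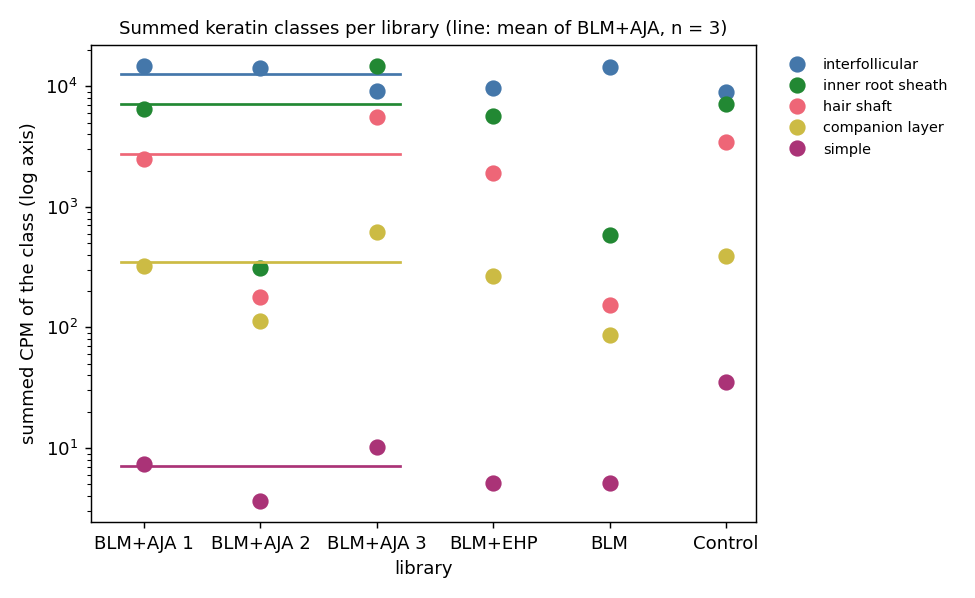
Summed CPM of 5 keratin classes in each library on a log axis; points are libraries and lines are the means of the 3 BLM+AJA libraries. Sheath and shaft sums are at 586 and 155 CPM in BLM and at 313 and 178 CPM in BLM+AJA replicate 2, whereas interfollicular sums stay between 8940 and 14581 CPM in all libraries.

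The simple keratins were scarce in skin and highest in the control library. Their summed level was 7.36, 3.67 and 10.2 CPM in the ajulemic acid libraries, 5.12 CPM in the EHP-101 library, 5.13 CPM in the bleomycin library and 35.6 CPM in the control library. Krt18 (gene 16668, chromosome 15, 102028216 to 102032026) had 40, 5 and 76 counts with ajulemic acid, 21 with EHP-101, 14 with bleomycin alone and 212 in control skin. Its partner Krt8 had 21, 5 and 35 counts with ajulemic acid, 11 with EHP-101, 11 with bleomycin alone and 126 in control skin. Krt19, a type I keratin of simple epithelia and of the follicle bulge, had 17, 16 and 30 counts with ajulemic acid, 19 with EHP-101, 16 with bleomycin alone and 138 in control skin. For these 3 genes the control library lay above all the others, and its intervals did not meet those of the other single libraries. Krt18 was at 13.9 CPM in control skin (12.1 to 15.9), Krt8 at 8.27 CPM (6.89 to 9.85) and Krt19 at 9.06 CPM (7.61 to 10.7). Krt7, a type II keratin of glands and ducts, had 25, 29 and 55 counts with ajulemic acid, 25 with EHP-101, 27 with bleomycin alone and 54 in control skin. Krt20, a keratin of gut and Merkel cells, had 5, 9 and 8 counts with ajulemic acid, 8 with EHP-101, 12 with bleomycin alone and 12 in control skin. Krt20 was thus at or near the same low level in the bleomycin and control libraries. Krt8 shares 26.9% of its 50-base windows with a pseudogene and is uncertain to that extent, while Krt19 shares none.

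In BLM against Control, log2 fold changes of the simple keratins were -3.94 (SE 1.61) for Krt18, -3.54 (SE 1.18) for Krt8, -3.13 (SE 0.53) for Krt19, -1.03 (SE 0.57) for Krt7 and -0.03 (SE 0.67) for Krt20. None passed edgeR's test, the smallest adjusted p being 0.434 for Krt19. Some markers of other epithelia were also highest in control skin. The 6 lung epithelium markers summed to 9.40, 9.85 and 4.54 CPM with ajulemic acid, 6.77 CPM with EHP-101, 19.6 CPM with bleomycin alone and 33.9 CPM in control skin. Surfactant gene Sftpc had 7, 1 and 4 counts with ajulemic acid, 3 with EHP-101, 51 with bleomycin alone and 266 in control skin, while the club cell gene Scgb1a1 had 116 counts with bleomycin alone and 19 in control skin. Of the 6 lung markers, 2 were higher with bleomycin alone than in control skin, Scgb1a1 and Scgb3a2, and Scgb3a2 was at 6.68, 6.36 and 2.44 CPM with ajulemic acid, 3.42 CPM with EHP-101, 6.16 CPM with bleomycin alone and 2.63 CPM in control skin. The 7 mammary and gland markers summed to 66.8, 108 and 57.1 CPM with ajulemic acid, 60.3 CPM with EHP-101, 81.1 CPM with bleomycin alone and 120 CPM in control skin. The milk protein gene Csn3, singled out after its values were seen, had 56 of the 1825 gland marker counts in control skin. It had between 0 and 16 counts elsewhere, although ajulemic acid replicate 2 had 1889 gland marker counts. Csn2 and Wap, also of this list, had at most 3 counts in any library. The 15 hepatocyte markers set the ajulemic acid libraries apart and did not follow the simple keratins. Without Hp, a gene singled out after its values were seen, the other 14 summed to 13.2, 18.6 and 11.7 CPM with ajulemic acid, 629 CPM with EHP-101, 701 CPM with bleomycin alone and 1016 CPM in control skin. The albumin gene Alb had 5.59, 12.6 and 1.74 CPM with ajulemic acid, 454 CPM with EHP-101, 477 CPM with bleomycin alone and 678 CPM in control skin. Against bleomycin alone, 14 of the 15 had negative values with ajulemic acid (median log2 fold change -6.17) and 14 stood at an unadjusted p under 0.05, while 0 passed edgeR's test. Hp made up most of the ajulemic acid sum over all 15 markers, with 430, 366 and 309 CPM of 443, 385 and 321 CPM. The part of liver RNA in any keratin value was not tested. The 6 gut markers lay between 7.63 and 11.9 CPM, with Cdx2 at 0 in all libraries, and the 6 kidney markers between 0.427 and 0.657 CPM. The part of lung and gland RNA in the simple keratin counts of control skin was not tested.

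**Figure D4:**
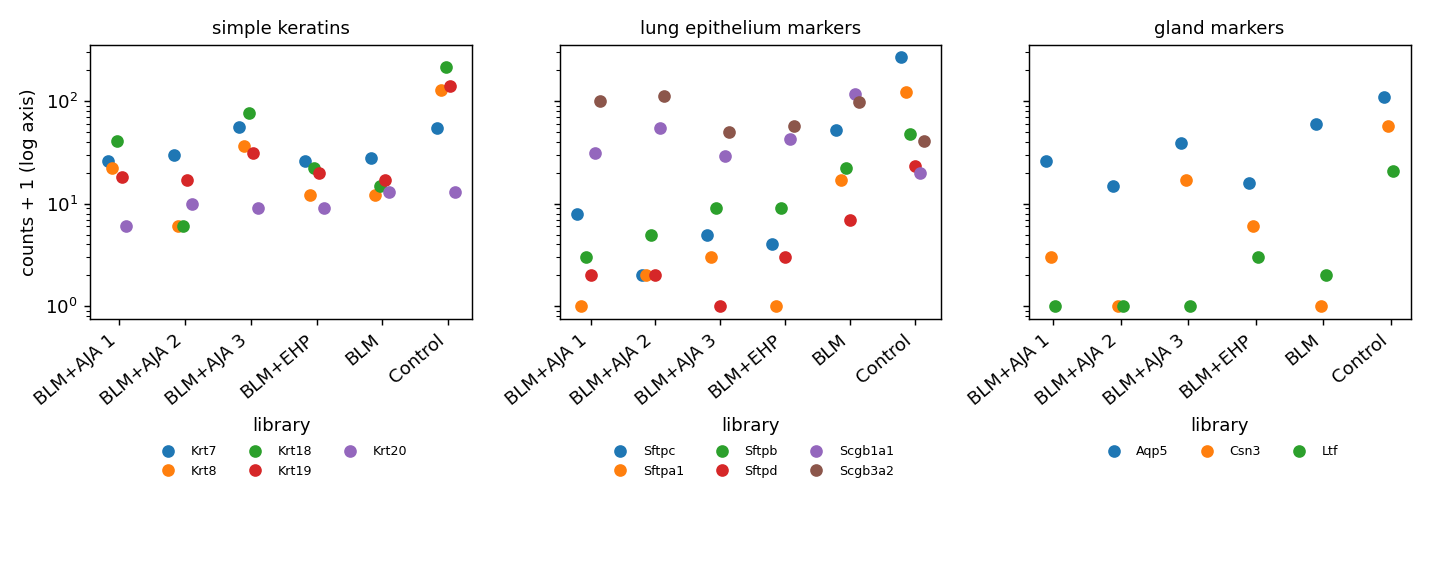
Counts plus 1 on a log axis, in each library, for the 5 simple keratins (left), the 6 lung epithelium markers (middle) and 3 of the 7 mammary and gland markers, chosen after their values were seen (right). Krt8, Krt18 and Krt19 reach 126, 212 and 138 counts in Control, where Sftpc is at 266, and Krt20, Scgb1a1 and Scgb3a2 do not follow.

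The remaining keratins were near the detection limit. The corneal keratin Krt12 had between 21 and 36 counts, the mucosal keratins Krt4 and Krt13 between 6 and 16 and between 2 and 15, and Krt76 at most 3. The summed mucosal and corneal keratins lay between 2.30 and 3.72 CPM. Krt222 had between 11 and 19 counts and Krt42 between 2 and 11. None of these 6 was above 2.05 CPM in any library.

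The first comparison asked how bleomycin-exposed skin differed from control skin. Sheath keratins in the bleomycin library summed to 0.0816 times their control level and shaft keratins to 0.0452 times, while interfollicular keratins summed to 1.62 times theirs. Of 8 tested sheath keratins, 8 had negative log2 fold changes (median -3.70), and of 15 shaft keratins, 15 did (median -4.45), against a median of -0.01 over all genes tested. All 12 tested interfollicular keratins had positive ones (median 0.64), between 0.07 for Krt23 and 4.11 for Krt2. The 5 simple keratins had negative ones (median -3.13). The standard errors were large for the follicle classes, between 2.39 and 2.65 for the sheath and between 1.96 and 2.60 for the shaft, because they rest on how far apart the ajulemic acid libraries lay. At an adjusted p under 0.05, edgeR called 0 of 47 keratins, with 0.0% of 17377 genes called in all. DESeq2 called 1 keratin, Krt2 (adjusted p = 1.8e-05), beside 0.903% of all genes, and limma-trend called 0 keratins beside 0.0% of all genes. Over 10 alternatives the adjusted p of Krt2 ran between 1.8e-05 and 0.999. At an unadjusted p under 0.05 stood 5 keratins (Krt14, Krt19, Krt2, Krt79 and Krt8), which is 10.6% of those tested, beside 6.8% of all genes. A fitted fold over 4 and lower in BLM was found for 28 of 47 keratins, beside 2.53% of all genes, and over 4 and higher for 1 (Krt2), beside 2.15%. Unadjusted p-values of the sheath and shaft keratins lay between 0.105 and 0.251. Krt14, at 2298 CPM with bleomycin alone and 1112 CPM in control skin, had a log2 fold change of 1.05 (SE 0.29, edgeR adjusted p = 0.644).

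EHP-101 was compared with bleomycin alone to ask how the compound altered bleomycin-exposed skin. The EHP-101 library had 9.73 times the sheath keratin level and 12.4 times the shaft keratin level of the bleomycin library, and 0.670 times its interfollicular level. All 8 sheath keratins (median log2 fold change 3.34) and all 15 shaft keratins (median 3.67) had positive values, with a median of 0.00 over all genes tested. Of 12 interfollicular keratins 11 had negative values, with a median of -0.34 and the lowest at -1.70 for Krt2 (SE 0.56). The 5 simple keratins centred near 0 (median -0.07). edgeR called 0 of 47 keratins, with 0.0% of all genes called, and DESeq2 and limma-trend called 0 keratins as well, beside 0.0575% and 0.0% of all genes. At an unadjusted p under 0.05 stood 2 keratins, Krt14 and Krt2, or 4.26% of those tested beside 1.89% of all genes. Krt14 had a log2 fold change of -0.81 (SE 0.29). A fitted fold over 4 and higher in BLM_EHP was found for 24 of 47 keratins, beside 1.86% of all genes, and over 4 and lower for 0, beside 0.788%. The sheath and shaft levels of the EHP-101 library came to 0.794 and 0.561 times those of the control library.

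Ajulemic acid was set against bleomycin alone with the same question. The mean sheath level was 7145 ± 7174 CPM and the mean shaft level 2741 ± 2685 CPM with ajulemic acid (SD, n = 3), against 586 and 155 CPM with bleomycin alone. The SD was as large as the mean, and without replicate 2 the means were 10560.4 and 4023 CPM, while without replicate 3 they were 3408 and 1345 CPM. The bleomycin values lay within the range of the 3 libraries for the sheath and just below it for the shaft. The highest ajulemic acid library exceeded the lowest by 46.7 times for the sheath and 31.2 times for the shaft. All 8 sheath keratins (median log2 fold change 3.57) and all 15 shaft keratins (median 4.16) had positive values, beside a median of 0.02 over all genes tested. Without replicate 2 these medians were 4.14 and 4.71, and without replicate 3 they were 2.51 and 3.05. Taken alone, replicate 2 had 0.534 times the sheath level and 1.15 times the shaft level of the bleomycin library. Interfollicular keratins averaged 12640 ± 3104 CPM with ajulemic acid, against 14488 CPM with bleomycin alone, with a median log2 fold change of -0.18 that was -0.34 without replicate 2 and 0.09 without replicate 3. Without replicate 2 their mean was 11821 CPM. Simple keratins averaged 7.07 ± 3.26 CPM, or 8.76 CPM without replicate 2, against 5.13 CPM with bleomycin alone. edgeR called 0 of 47 keratins, with 0.0% of all genes called. DESeq2 called 1 keratin beside 0.593% of all genes, and limma-trend 0 beside 0.0%. The keratin called by DESeq2 was Krt2, at 5.16 ± 2.05 CPM with ajulemic acid and 27.3 CPM with bleomycin alone, with an edgeR log2 fold change of -2.41 (SE 0.41, adjusted p = 0.384). Its DESeq2 adjusted p was 0.00445, and its adjusted p ran between 0.00445 and 0.695 over 10 alternatives. Krt2 was also the only keratin at an unadjusted p under 0.05 by edgeR, or 2.13% of those tested beside 3.83% of all genes. It was lower in 3 of 3 ajulemic acid libraries. Without replicate 2, edgeR called the unplaced Krt90 (log2 fold change 4.63, adjusted p = 0.0463), beside 0.398% of all genes, and the adjusted p of Krt90 ran between 0.0463 and 1 over the alternatives. A fitted fold over 4 and higher in BLM_AJA was found for 25 of 47 keratins, beside 1.67% of all genes, and over 4 and lower for 1 (Krt2), beside 1.58%.

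**Figure D5:**
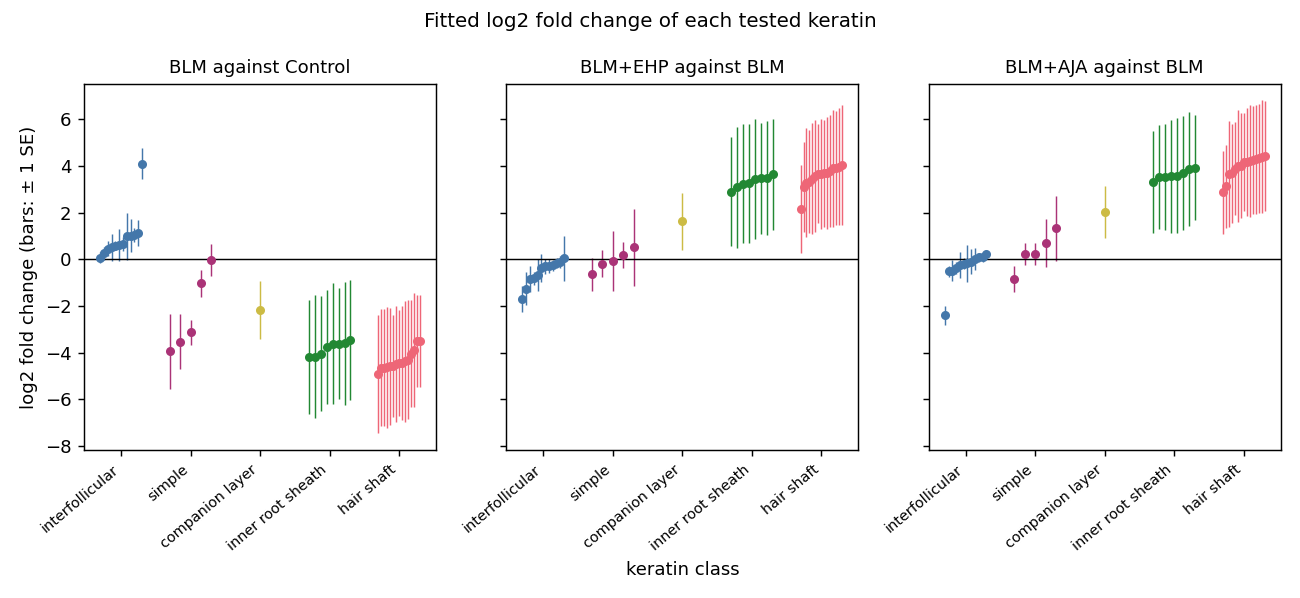
Fitted log2 fold change with 1 SE for each tested keratin of 5 classes, in BLM against Control (left), BLM+EHP against BLM (middle) and BLM+AJA against BLM (right). Sheath and shaft keratins lie below 0 on the left and above 0 in the other panels with SEs of about the size of a class's spread or more, and the lone high interfollicular point on the left is Krt2 at 4.11.

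EHP-101 and ajulemic acid were also compared with each other and with control skin, using the same single libraries, so these comparisons are not independent of those above. For EHP-101 against ajulemic acid, 7 of 8 sheath keratins (median log2 fold change -0.29) and 13 of 15 shaft keratins (median -0.51) had negative values. edgeR called 0 of 47 keratins, with 0.0% of all genes called and 0 keratins at an unadjusted p under 0.05, beside 2.37% of all genes. DESeq2 and limma-trend called 0 keratins, beside 0.368% and 0.0% of all genes. Both medians changed sign without replicate 3, to 0.77 for the sheath and 0.55 for the shaft, and were -0.82 and -1.05 without replicate 2. In EHP-101 against control, 8 of 8 sheath keratins (median -0.40) and 14 of 15 shaft keratins (median -0.90) had negative values, and 0 were called by any of the 3 tools, beside 0.0% of all genes by edgeR and limma-trend and 0.679% by DESeq2. Krt19, Krt2 and Krt8 stood at an unadjusted p under 0.05 there, or 6.38% of keratins beside 4.64% of all genes. In ajulemic acid against control, sheath keratins had a median of -0.24 and shaft keratins of -0.36. Without replicate 2 these were 0.25 and 0.12, and without replicate 3 they were -1.28 and -1.40. Simple keratins had a median of -2.61, which was -2.14 without replicate 2. edgeR called 0 keratins beside 0.0345% of all genes, DESeq2 called 2 (Krt19 and Krt79) beside 1.59%, and limma-trend 0 beside 0.0%. At an unadjusted p under 0.05 were 4 keratins, Krt19, Krt2, Krt79 and Krt8, or 8.51% beside 7.12% of all genes. Krt19 was at 1.19 ± 0.29 CPM with ajulemic acid, against 9.06 CPM in control skin, a log2 fold change of -2.91 (SE 0.36, edgeR adjusted p = 0.103, between 0.00354 and 0.571 over 10 alternatives). It was lower in 3 of 3 ajulemic acid libraries. Krt79 was at 462 ± 23.8 CPM, against 259 CPM in control skin, and was higher in 3 of 3, with a log2 fold change of 0.83 (SE 0.18, edgeR adjusted p = 0.304, between 0.0294 and 1 over the alternatives). Without replicate 2, edgeR called Krt8 (adjusted p = 0.0483) and Krt19 (adjusted p = 0.0347), beside 1.25% of all genes.

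Genes that work with the follicle keratins were split by library in a like manner. Of 12 genes of hair structure, 11 had negative values in BLM against Control, with a median log2 fold change of -2.57. Tchh, the trichohyalin that binds sheath keratins, had 4675, 205 and 11645 CPM with ajulemic acid, 4761 CPM with EHP-101, 468 CPM with bleomycin alone and 5008 CPM in control skin. S100a3, a calcium-binding protein of the hair cuticle, had 244, 19.3 and 492 CPM with ajulemic acid, 231 CPM with EHP-101, 17.9 CPM with bleomycin alone and 363 CPM in control skin. Lgals7, a galectin of stratified epithelia, was the exception, at 330, 283 and 267 CPM with ajulemic acid, 219 CPM with EHP-101, 366 CPM with bleomycin alone and 235 CPM in control skin. Among 23 regulators of the follicle, 20 had negative values in BLM against Control (median -0.72), 21 had positive values in BLM_EHP against BLM (median 0.94) and 20 in BLM_AJA against BLM (median 0.74). Hoxc13, which acts on hair keratin genes in mice, had 32.8, 8.14 and 64.3 CPM with ajulemic acid, 41.5 CPM with EHP-101, 8.34 CPM with bleomycin alone and 39.99 CPM in control skin. Lef1, a Wnt pathway factor of the hair matrix, had 19.2, 4.98 and 49.9 CPM with ajulemic acid, 37.0 CPM with EHP-101, 5.90 CPM with bleomycin alone and 28.1 CPM in control skin. Foxn1, whose loss gives nude mice, had 29.5, 8.25 and 50.4 CPM with ajulemic acid, 26.6 CPM with EHP-101, 9.36 CPM with bleomycin alone and 27.9 CPM in control skin. Gata3, a factor of the inner root sheath that is also made in epidermis, did not show this split, at 179, 153 and 142 CPM with ajulemic acid, 162 CPM with EHP-101, 161 CPM with bleomycin alone and 134 CPM in control skin. The abundant regulators Cux1 and Vdr lay between, with 101 and 128 CPM under bleomycin alone and 199 and 191 CPM in control skin.

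Epidermal genes outside the keratin family also stayed within a narrow range. Of 21 genes of hemidesmosomes and desmosomes, 20 had positive values in BLM against Control (median 0.49), 18 negative values in BLM_EHP against BLM (median -0.20) and 13 negative values in BLM_AJA against BLM (median -0.11). Desmoplakin (Dsp), to which keratin filaments attach at desmosomes, had 6526, 5507 and 5882 CPM with ajulemic acid, 5159.6 CPM with EHP-101, 5601 CPM with bleomycin alone and 4823 CPM in control skin. The linker Plec was at 1530.1 ± 43.6 CPM with ajulemic acid (SD, n = 3), 1498 CPM with EHP-101, 1529.6 CPM with bleomycin alone and 1035 CPM in control skin. The desmosomal Perp was at 1962 CPM with bleomycin alone and 1377 CPM in control skin, and the basal integrin Itga6 at 249 and 178 CPM. Trp63, the master factor of stratified epithelium, was at 461 CPM with bleomycin alone and 296 CPM in control skin, while Grhl1, at 216 and 246 CPM, lay closer together. None of the genes of these 4 lists passed edgeR's test in any of these 3 comparisons. Among marker lists that ran with the follicle keratins were the 20 proliferation genes, which summed to 752, 521 and 1170 CPM with ajulemic acid, 915 CPM with EHP-101, 427 CPM with bleomycin alone and 1031 CPM in control skin. The 8 melanocyte markers did so too, at 379, 109 and 656 CPM with ajulemic acid, 348 CPM with EHP-101, 137 CPM with bleomycin alone and 366 CPM in control skin. The 6 adipocyte markers were also lowest with bleomycin alone but did not share the low values of ajulemic acid replicate 2, at 953, 901 and 715 CPM with ajulemic acid, 1322 CPM with EHP-101, 684 CPM with bleomycin alone and 1773 CPM in control skin. The 6 muscle markers were highest with bleomycin alone and lowest in control skin, at 3037, 4509 and 2290 CPM with ajulemic acid, 4545 CPM with EHP-101, 5097 CPM with bleomycin alone and 1942 CPM in control skin. The 7 sebocyte markers did not run with the follicle keratins, at 272, 436 and 190 CPM with ajulemic acid and 133 CPM with EHP-101. They were at 295 CPM with bleomycin alone and 237 CPM in control skin. The part of proliferation, fat, muscle, or melanocyte, sebocyte or follicle number in the keratin values was not tested. With 1 library analysed in 3 of the 4 conditions, the condition and the library cannot be told apart. Any further libraries of those conditions were not used. Of the stress keratins left out of the family here, Krt16 was highest with bleomycin alone at 99.2 CPM, and Krt17, which is also a follicle keratin, was at 502 CPM with bleomycin alone and 741 CPM in control skin.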

How the data were processed

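Counts of 6 skin libraries were analysed. Per the labels' protocols, 300 ng of total RNA per sample went into stranded libraries depleted of ribosomal RNA, read as single ends of 50 bases. The submitters' processing notes name the mm10 genome and the tools featureCounts 1.6.1, HISAT2 2.1.0, DESeq2 1.20.0 and Trimmomatic 0.36. The authors deposited raw counts per gene by NCBI gene number, and 25275 of 27179 numbers were matched to a symbol. How strand and multiply matching reads were handled is not given in the sources used here. A second deposited table, merged with another series, held the same counts for these libraries (0 differing values). Its 6 further sample columns, taken to belong to the other series, were left aside. Any replicates of the control, bleomycin or EHP-101 conditions among them were not used. The single library of each of these conditions is therefore what was analysed, and not all that may exist. No pair of ajulemic acid libraries was a duplicate, since their counts differed beyond sampling noise (smallest chi-square per degree of freedom 37.5).

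The test was edgeR 4.0.16 (R 4.3.3), two-sided quasi-likelihood F-tests with the robust option, TMM scaling and filterByExpr (minimum count 10, 17377 genes tested), with all 6 libraries fitted together, Benjamini-Hochberg adjustment over all genes and a threshold of 0.05. Its 2 residual degrees of freedom came from the ajulemic acid group alone, so single libraries were assumed to vary like that group (common biological coefficient of variation 0.267). There were 6 comparisons. The SE printed with an edgeR log2 fold change is its absolute value divided by the square root of the F statistic. CPM used TMM-scaled library sizes, levels per length divided these by the deposited gene length, and intervals are exact 95% Poisson intervals. Shared windows of 50 bases were counted in GENCODE M21 transcripts, and Krt74 was not matched there. The protein comparison that had been planned was not run. Alternatives were DESeq2 1.42.0, limma-trend (limma 3.58.1, prior count 3), other scalings, no filter, no robust option and leaving out each ajulemic acid library. The scripts were tested on simulated counts.

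Members, classes and gene lists were chosen with earlier results of these data known. Values in every library are given for the 5 keratins of highest mean level per length in the shaft, sheath and interfollicular classes, for all simple keratins, and for any keratin at an unadjusted p under 0.05 in the first 3 comparisons or called in any. From the lists of other genes, those named are the 3 of highest mean CPM and Lef1, Hoxc13, Foxn1, Trp63 and Itga6. A gene that this rule would name is not reported here. Other keratins and markers named singly were chosen after their values were seen.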

Additional observations from a re-analysis of the deposited data

How the results depend on the processing

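Of 240 alternative values of the class medians and 60 of the summed CPM, 238 and 60 stayed within 1 SD of the reported ones. The SD was that of the ajulemic acid libraries, in log2 units for the medians and in CPM for the sums. In CPM it was as large as the mean for sheath and shaft keratins. It was also used for comparisons that hold no ajulemic acid library, so staying within it says little there. Within the SD in CPM, the mean of the ajulemic acid group without replicate 3 was 3408 in place of 7145 CPM for the sheath. For the shaft it was 1345 in place of 2741 CPM. Leaving out replicate 2 or 3 also turned signs of class medians, as given in the comparisons. The median of simple keratins in BLM_AJA against Control moved by more, lying between -3.12 and -2.14 with 1 library left out. The counts of genes passing the threshold did not hold. DESeq2 called 157 genes in BLM against Control, 10 in BLM_EHP against BLM, 103 in BLM_AJA against BLM, 64 in BLM_EHP against BLM_AJA, 118 in BLM_EHP against Control and 276 in BLM_AJA against Control. Without the filter on low counts edgeR called 41, 16 and 153 genes in BLM_AJA against BLM, BLM_EHP against BLM_AJA and BLM_AJA against Control. In the last of these, library totals alone gave 35 and limma-trend 0. Leaving out 1 ajulemic acid library gave between 0 and 179 genes in BLM against Control, 0 and 92 in BLM_AJA against BLM, 0 and 67 in BLM_EHP against BLM_AJA, 0 and 91 in BLM_EHP against Control and 0 and 368 in BLM_AJA against Control. The highest count came without replicate 3 in each of these 5.

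Among keratins, DESeq2 called 1 in BLM against Control, 1 in BLM_AJA against BLM and 2 in BLM_AJA against Control, and edgeR without the filter called 1 (Krt19) in the last. Leaving out 1 library gave between 0 and 2, 0 and 1, and 0 and 2 keratins in these comparisons. Without replicate 3, Krt2 (adjusted p = 0.0205) and Krt19 (0.0418) were called in BLM against Control, and Krt19 (0.00803) in BLM_AJA against Control. Values near 0 changed sign: Krt77 in BLM_AJA against BLM, reported at 0.00, was at -0.00529 by DESeq2 and RLE scaling, -0.0758 by limma-trend, -0.0231 with library totals alone and between -0.21 and 0.28 with 1 library left out. In the same comparison, leaving out 1 library gave Krt10 between -0.29 and 0.20 and Krt7 between -0.0417 and 0.39. With library totals alone, Krt8 was at 0.00539 in BLM_EHP against BLM and Krt20 at 0.0170 in BLM against Control. The cause was not tested for any of these.

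No paired analysis was possible with the libraries used, because the groups share a single replicate number. The tests rest on 2 residual degrees of freedom, so a keratin that was not called is not shown to be unchanged. Keratins under about 1 CPM rest on few counts.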
